A study of Mus musculus with 8 samples.

Results

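The genes described here encode the apolipoproteins of very low density lipoprotein (VLDL) and high density lipoprotein (HDL), together with the protein that loads lipid onto VLDL. They are Apob, Mttp, Apoa1, Apoa2, Apoa4, Apoa5, Apoc1, Apoc2, Apoc3 and Apoe, and were chosen by symbol. These 10 genes were all found among the 46517 genes of the count table, and all 10 passed the filter on low counts. RNA of whole liver was sequenced from 4 MøFoxO1-KO mice (replicates 26 to 29) and 4 WT littermates (replicates 22 to 25). MøFoxO1-KO mice carried FoxO1 loxP/loxP alleles with Lyz2-Cre, which drives Cre recombinase from the lysozyme 2 promoter of myeloid cells, and WT littermates carried the FoxO1 loxP/loxP alleles without Cre. Hepatocytes, the main source of these apolipoproteins, are not myeloid cells. All 8 mice were C57BL/6 males that received a NASH diet from 6 weeks of age for 25 weeks and were studied at 31 weeks after a 16-hour fast, so all values describe livers under this diet.

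The liver exports triglyceride as VLDL. A single ApoB molecule forms the backbone of each particle, and microsomal triglyceride transfer protein, the product of Mttp, adds lipid to ApoB while it is being made. Without this lipidation, ApoB is degraded inside the cell. Smaller apolipoproteins then move between VLDL and HDL in plasma. ApoE is the ligand for clearance by liver receptors, ApoC-II activates lipoprotein lipase, ApoC-I and ApoC-III slow lipolysis and clearance, ApoA-V promotes lipolysis, and ApoA-I and ApoA-II are the main proteins of HDL. FoxO1 in hepatocytes is known to promote Mttp and Apoc3 transcription in the fasted state, which gives these genes a particular place in a study of FoxO1, although the deletion here was aimed at myeloid cells.

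Mean levels of most small apolipoprotein mRNAs were higher in MøFoxO1-KO than in WT livers, while Apob and Mttp, the pair that builds the core of VLDL, had log2 fold changes of -0.22 and 0.02. With an offset for GC content and exon length, added after seeing the data, log2 fold changes of Apob and Mttp were -0.089 and 0.12. Those of Apoa2 and Apoa5 were 0.075 and 0.091 with it. The median of the 10 genes was 0.40 without and 0.18 with this offset. Apoa1 had the largest difference of the 10 genes, 2.09-fold higher, and its values in every MøFoxO1-KO mouse lay above those of every WT littermate. Apoc3 and Apoe also did not overlap between the groups in normalized counts, where 9.71% of all tested genes were apart (5.00% with MøFoxO1-KO above WT). As shares of all counts, and relative to hepatocyte markers, the groups overlapped for both Apoc3 and Apoe. By the quasi-likelihood test of edgeR, with P values adjusted over all 13278 tested genes, 0 of the 10 genes passed an adjusted P of 0.05, so none was called differentially expressed. DESeq2 passed 1 of them at this adjusted P, Apoa1, where it passed 4.42% of all tested genes (2.58% as higher), and limma-voom passed 0. The call required an adjusted P under 0.05 with an absolute log2 fold change over 1.5. By edgeR, 0.188% of all tested genes met it (0.0527% as higher in MøFoxO1-KO livers), while 0.294% met the adjusted P alone (0.121% as higher).

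**Figure D1:**
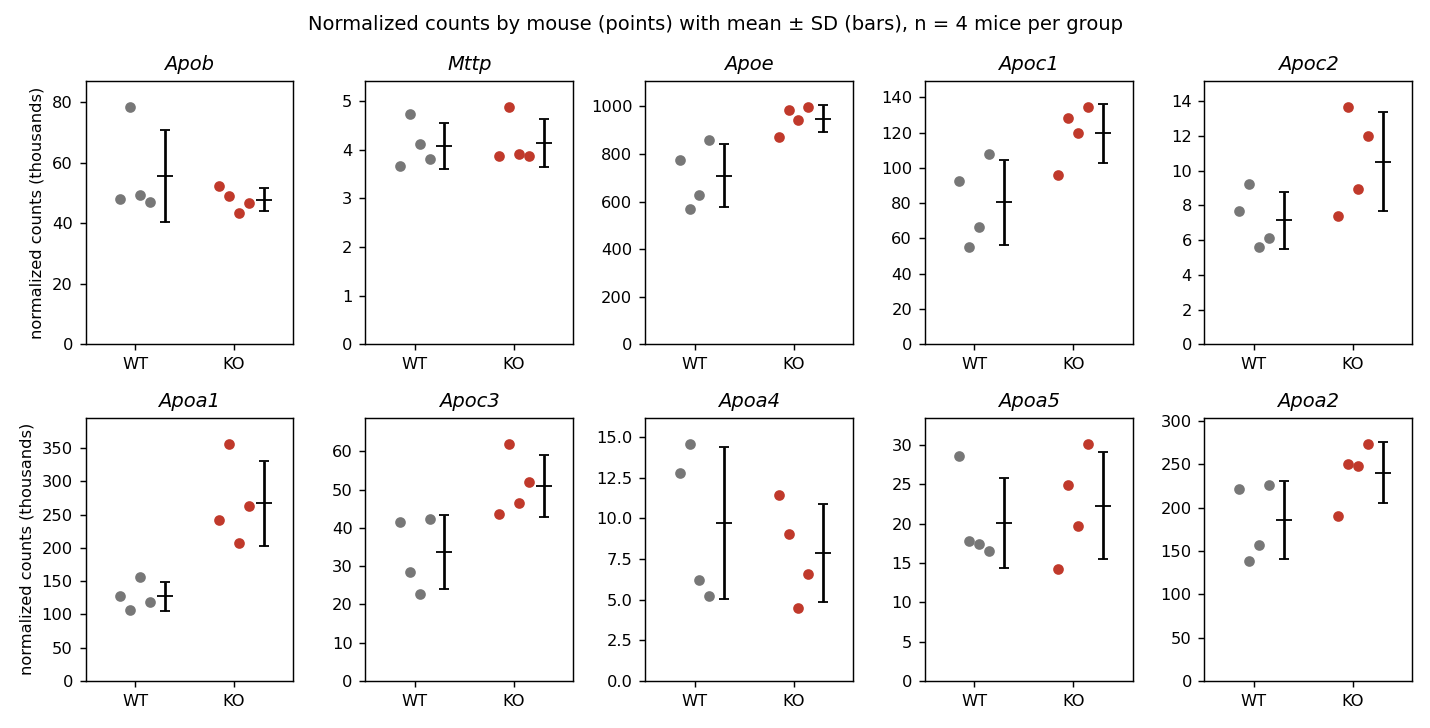
Normalized counts (in units of 1000, linear axis from 0) of each of the 10 genes in the 4 WT and 4 MøFoxO1-KO (KO) livers. Points are mice, and bars are the mean ± SD beside them. The groups are apart for Apoa1, Apoc3 and Apoe and overlap for the other 7 genes.

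Of the 10 genes, 7 lie in 2 clusters of the mouse genome, GRCm38. Apoa1, Apoc3, Apoa4 and Apoa5 share 43.3 kb of chromosome 9, from 46228580 to 46271919. Apoc2, Apoc1 and Apoe share 27.6 kb of chromosome 7, from 19671579 to 19699166. Apoa2 lies on chromosome 1 (171225054 to 171226379), Apob on chromosome 12 (7977648 to 8016835) and Mttp on chromosome 3 (138089854 to 138144968). Upstream sequences of these genes were searched for letters known for transcription factor binding. RefSeq promoter windows on GRCm38.p6, 300 bases each from 250 before to 50 after a start site, were found for 8 of the 10 genes, without Apoc1 and Apoc3. The part before the annotated gene is shown for the gene with the largest difference, for the abundant Apoe and Apoa2, and for Apob. Capitals mark TATAA, the TATA box core, or a match to GTAAACA, the core recognized by FoxO proteins, which reads TGTTTAC on the other strand.
Apoa1, chr9:46228380-46228579, plus strand: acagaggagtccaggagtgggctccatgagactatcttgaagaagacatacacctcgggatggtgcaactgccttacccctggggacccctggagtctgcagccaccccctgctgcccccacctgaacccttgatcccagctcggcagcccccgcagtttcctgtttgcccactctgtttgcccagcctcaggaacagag
Apoe, chr7:19699189-19699438, minus strand: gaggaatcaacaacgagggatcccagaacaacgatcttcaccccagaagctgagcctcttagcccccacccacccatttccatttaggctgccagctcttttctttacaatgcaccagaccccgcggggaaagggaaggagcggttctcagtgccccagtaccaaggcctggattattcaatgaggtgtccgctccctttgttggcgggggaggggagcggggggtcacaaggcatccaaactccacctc
Apoa2, chr1:171224804-171225053, plus strand: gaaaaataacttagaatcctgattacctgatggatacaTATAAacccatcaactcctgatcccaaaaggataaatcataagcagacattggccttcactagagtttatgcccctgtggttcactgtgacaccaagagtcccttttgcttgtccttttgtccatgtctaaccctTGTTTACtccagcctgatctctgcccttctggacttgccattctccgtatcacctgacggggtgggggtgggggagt
Apob, chr12:7977427-7977647, plus strand: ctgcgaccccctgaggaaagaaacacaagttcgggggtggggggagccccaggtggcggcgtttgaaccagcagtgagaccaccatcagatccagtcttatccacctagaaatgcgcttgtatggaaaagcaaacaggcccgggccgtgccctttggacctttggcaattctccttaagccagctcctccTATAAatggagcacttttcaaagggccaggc

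In the window nearest each gene start, GTAAACA stood on either strand in 1 of the 8 genes, Apoa2, where it lay 77 bases before the start site on the reverse strand. The letters were found in 3.65% of 32851 promoter windows of the same length. The insulin response core CAAAACA and the HNF4A core CAAAGTC, searched on both strands, were found in 0 of the 8 genes and in 6.28% and 4.44% of all windows. TATAA was found in 3 genes, Apob, Apoa2 and Apoa5, at 60, 212 and 56 bases before the start site, against 24.9% of all windows. No matches overlapped each other in these windows. A further Apoe window, whose start site lies 768 bases inside the gene, held GTAAACA and CAAAACA. The start site of the Mttp window lies 1550 bases from the gene start of the count table, so it is another start site of Mttp. For Apoc2 the distance is 3482 bases, because the count table extends Apoc2 to 19681423. In GENCODE M21 the Apoc2 gene starts at 19677941, the start site of its window. The Apoa1 and Apoe sequences shown above carried none of the 4 motifs. A missing match says only that these letters are absent from a window of this size.

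Apoa1 encodes the main protein of HDL. WT replicates 22, 23, 24 and 25 had 128181, 106256, 156747 and 118041 normalized Apoa1 counts, which are counts scaled to the mean library size after TMM normalization. MøFoxO1-KO replicates 26, 27, 28 and 29 had 241140, 355883, 206897 and 262576. The lowest MøFoxO1-KO mouse lay well above the highest WT mouse, and replicate 27 was the highest of all. Group means were 127306 ± 21575 in WT and 266624 ± 63771 in MøFoxO1-KO livers (SD, n = 4), and the difference reached the smallest value that an exact permutation test of 4 against 4 mice allows (two-sided P = 0.0286). The log2 fold change was 1.07 (standard error [SE] 0.21, edgeR adjusted P = 0.0765), and 2 standard errors on either side correspond to folds between 1.57 and 2.79. The adjusted P passed 0.05 by DESeq2 (1.5e-05, where 4.42% of genes passed, 2.58% as higher), without a filter on low counts in edgeR (0.0302) and without MøFoxO1-KO replicate 28 (0.0389), and it lay between 0.063 and 0.203 under the other alternatives.

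Apoc3, which lies next to Apoa1 on the opposite strand, encodes an inhibitor of lipoprotein lipase and of remnant uptake. WT replicates 22 to 25 had 41574, 28558, 22842 and 42268 normalized Apoc3 counts, against 43527, 61922, 46486 and 51931 in MøFoxO1-KO replicates 26 to 29. The groups did not overlap, but the gap between the highest WT mouse and the lowest MøFoxO1-KO mouse was narrow. The means of 33810 ± 9656 and 50966 ± 8091 (SD, n = 4) correspond to a log2 fold change of 0.59 (SE 0.22, edgeR adjusted P = 0.225).

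Apoa4 and Apoa5, the other genes of this cluster, overlapped between the groups. Apoa4 encodes an apolipoprotein made by intestine and, under lipid load, by liver. It had 12818, 14572, 6220 and 5223 normalized counts in WT replicates 22 to 25 and 11441, 9040, 4504 and 6572 in MøFoxO1-KO replicates 26 to 29. Both groups thus held mice with high and with low Apoa4, and the spread within a group exceeded the difference between them (log2 fold change -0.30, standard error 0.37, edgeR adjusted P = 0.732). With any 1 mouse left out, Apoa4 ranged from -0.54 to -0.036, the latter without WT replicate 23. Apoa5 had 28586, 17816, 17354 and 16479 normalized counts in WT replicates 22 to 25, so WT replicate 22 stood apart from the other 3. MøFoxO1-KO replicates 26 to 29 had 14286, 24854, 19732 and 30109, with the lowest and the highest Apoa5 of all 8 mice among them. For Apoa5 the log2 fold change was 0.15 (standard error 0.25, edgeR adjusted P = 0.808), and it became -0.03 without MøFoxO1-KO replicate 29 and 0.37 without WT replicate 22.

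Apoe encodes the receptor ligand of VLDL remnants and was the 2nd most counted gene of these livers. It had 776278, 569731, 629250 and 857908 normalized counts in WT replicates 22 to 25 and 872076, 982925, 940968 and 995917 in MøFoxO1-KO replicates 26 to 29. All MøFoxO1-KO mice lay above WT, but the gap between WT replicate 25 and MøFoxO1-KO replicate 26 was narrow. The MøFoxO1-KO mice varied less among themselves. The means were 708292 ± 132230 and 947972 ± 55766 (SD, n = 4), which is 1.34-fold (log2 fold change 0.42, standard error 0.19, edgeR adjusted P = 0.288). As a share of all counts without TMM scaling, Apoe took 3.44 to 5.38% in WT and 5.05 to 5.76% in MøFoxO1-KO livers, which overlapped. The shares of Apoc3 overlapped as well, at 0.161 to 0.266% in WT and 0.252 to 0.340% in MøFoxO1-KO livers, while those of Apoa1 did not, at 0.642 to 1.10% and 1.27 to 1.95%.

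Apoc1 and Apoc2 are the neighbours of Apoe on chromosome 7. Apoc1, an inhibitor of lipoprotein uptake, had 92516, 54931, 66345 and 107893 normalized counts in WT replicates 22 to 25 and 96021, 128080, 119588 and 134321 in MøFoxO1-KO replicates 26 to 29. WT replicate 25 lay above MøFoxO1-KO replicate 26, and the groups otherwise were apart (log2 fold change 0.57, standard error 0.23, edgeR adjusted P = 0.248). Apoc2, the activator of lipoprotein lipase, had 7670, 9228, 5584 and 6122 normalized counts in WT and 7370, 13648, 8963 and 12022 in MøFoxO1-KO livers, in the same order of replicates. The Apoc2 groups overlapped (log2 fold change 0.55, standard error 0.22, edgeR adjusted P = 0.256). In the count table the Apoc2 gene spans Apoc4 on the same strand, a gene with 6752 to 17689 counts per mouse, so how reads were divided between them is uncertain.

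Apoa2 encodes the second protein of HDL. It had 221810, 138548, 157018 and 225901 normalized counts in WT replicates 22 to 25 and 189885, 250436, 247393 and 273284 in MøFoxO1-KO replicates 26 to 29. MøFoxO1-KO replicate 26 lay among the WT mice, and the other 3 lay above them (log2 fold change 0.37, standard error 0.21, edgeR adjusted P = 0.404). With an offset for GC content and exon length, the log2 fold change of Apoa2 was 0.075 (edgeR, adjusted P = 0.867), and those of Apoc1, Apoc2, Apoc3 and Apoe were 0.28, 0.24, 0.35 and 0.30.

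Apob and Mttp make the core of VLDL. Apob had 47918, 78259, 49335 and 46983 normalized counts in WT replicates 22 to 25 and 52251, 48888, 43303 and 46791 in MøFoxO1-KO replicates 26 to 29. WT replicate 23 had far more Apob than any other mouse, and the remaining 7 mice lay close together. Apob had a log2 fold change of -0.22 (SE 0.19, edgeR adjusted P = 0.601), and -0.01 without WT replicate 23. Mttp had 3672, 4739, 4115 and 3822 normalized counts in WT replicates 22 to 25 and 3876, 4876, 3911 and 3873 in MøFoxO1-KO replicates 26 to 29. Its groups covered nearly the same range, and 2 standard errors around the log2 fold change of 0.02 correspond to folds between 0.841 and 1.22 (edgeR, adjusted P = 0.963). Mttp overlaps Trmt10a, which had 65 to 114 counts, on the opposite strand.

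**Figure D2:**
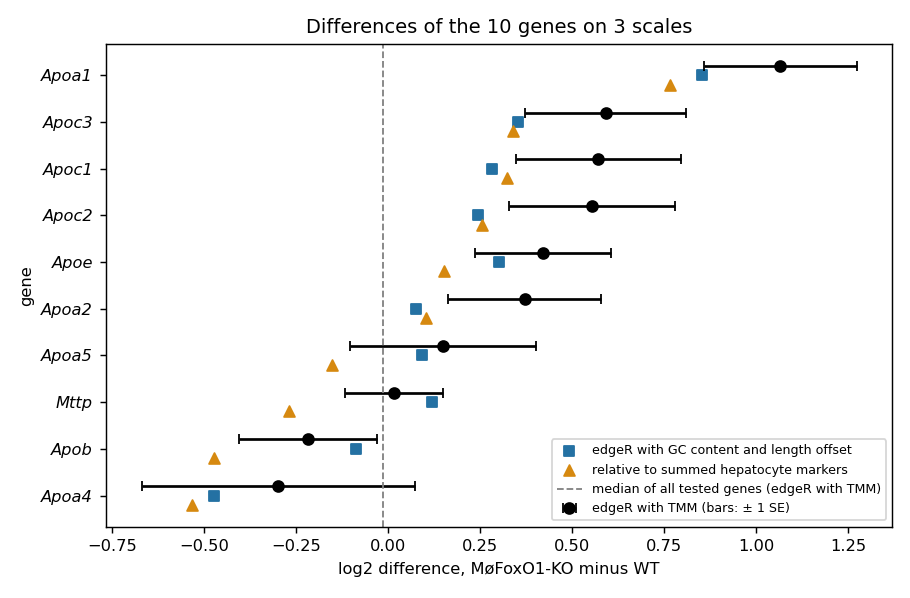
Log2 difference of MøFoxO1-KO minus WT livers for each of the 10 genes (rows) on 3 scales, by edgeR with TMM (circles, bars ± 1 SE), with an offset for GC content and length (squares) and relative to 10 summed hepatocyte markers (triangles). The dashed line is the median of all tested genes. Apoa1 lies farthest to the right on each scale, and Apob and Apoa4 lie below 0 on each.

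Counted together, 8 of the 10 genes had a log2 fold change above 0, against 48.3% of all tested genes, with a median of 0.40 against -0.01 over all tested genes. The median was 0.18 with the offset for GC content and exon length. Of the 10, 5 had an unadjusted P under 0.05 by edgeR and all 5 were higher in MøFoxO1-KO livers (Apoa1, Apoc3, Apoc1, Apoc2 and Apoe), compared with 16.7% of all tested genes in either direction and 8.65% in this direction. The groups were apart for 3 of 10 genes, against 9.71% of tested genes, and MøFoxO1-KO values were the higher ones in all 3, against 5.00%. Several of these genes are neighbours and all come from the same 8 livers, so they are not independent of each other. MøFoxO1-KO replicates 27 and 29 held the highest value of 4 genes each, and WT replicate 23 held the lowest value of 4 genes and the highest of Apob and Apoa4.

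The 10 genes took up 8.70, 6.18, 7.83 and 8.97% of all counts in WT replicates 22 to 25 and 8.87, 10.3, 10.1 and 10.4% in MøFoxO1-KO replicates 26 to 29. The means were 7.92 ± 1.26% and 9.90 ± 0.702% (SD, n = 4), and the groups overlapped by WT replicate 25 and MøFoxO1-KO replicate 26 (exact permutation test, P = 0.0571). Within these counts, Apoe held 55.7 to 60.0% in WT and 52.3 to 57.3% in MøFoxO1-KO livers. Apoa1 held 8.25 to 14.1% in WT and 12.6 to 18.9% in MøFoxO1-KO livers. Mttp held 0.267 to 0.463% in WT and 0.213 to 0.259% in MøFoxO1-KO livers, without overlap (exact permutation test, unadjusted P = 0.0286). The shares of all other genes within the 10 overlapped. The share of Mttp within the 10 also depends on the counts of the other genes. As a share of all counts Mttp differed 0.907-fold with overlapping groups, and its mean normalized count differed 1.01-fold.

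Levels of different genes were compared as counts per kb of exon length after scaling to 1000000 counts. On this scale Apoe, at 21802 ± 4070, and Apoa2, at 21089 ± 5061, led in WT livers (SD, n = 4) and could not be ordered. Apoc1 (9127 ± 2740) and Apoa1 (6277 ± 1064) followed, apart from the leading pair, and overlapped in WT, and they overlapped in MøFoxO1-KO livers too, at 13563 ± 1904 and 13147 ± 3144. Apoc3 stood alone below them at 2032 ± 580 in WT and 3063 ± 486 in MøFoxO1-KO livers. Apoa5, Apoc2, Apoa4 and Apob came next, with WT means of 486, 468, 326 and 243 and MøFoxO1-KO means of 538, 687, 265 and 209, each overlapping its neighbour in the order. Mttp was lowest and apart from the rest, at 40.1 ± 4.63 in WT and 40.6 ± 4.86 in MøFoxO1-KO livers. The order was the same in MøFoxO1-KO livers except that Apoc2 and Apoa5, which overlapped, changed places.

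**Figure D3:**
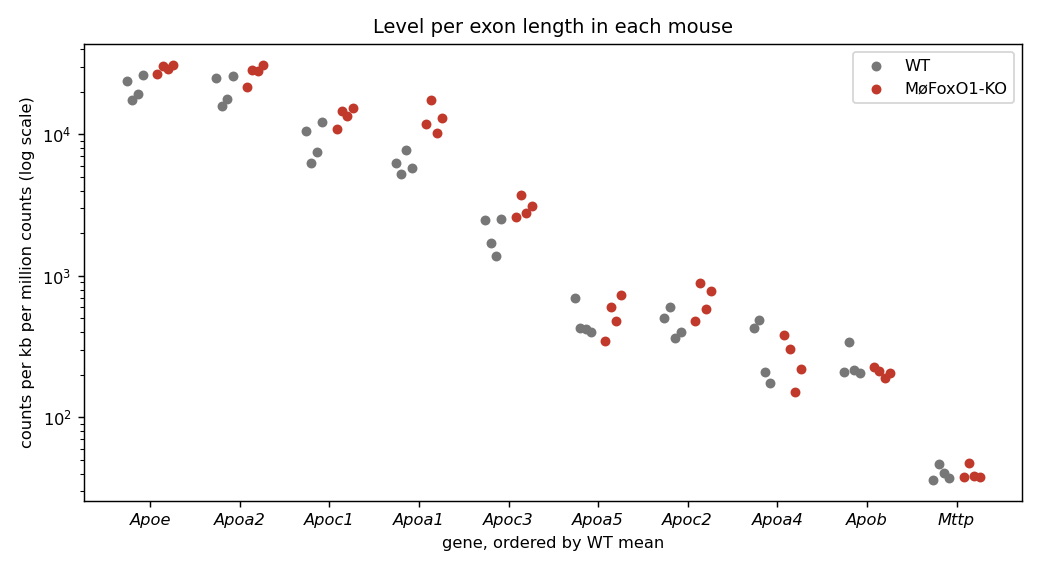
Level of each of the 10 genes per exon length in every mouse, in counts per kb per 1000000 counts (log axis), ordered by the WT mean, with WT in grey and MøFoxO1-KO in red. Apoe and Apoa2 lead, Apoc3 stands alone between the abundant and the scarce genes, and Mttp is lowest near 40.1.

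Ratios between genes of the same mouse need no scaling between libraries. The log2 ratio of Apoa4 to Apoa1, per kb, was -3.88, -3.42, -5.21 and -5.05 in WT replicates 22 to 25 and -4.95, -5.85, -6.08 and -5.87 in MøFoxO1-KO replicates 26 to 29. It was 1.30 log2 units smaller on average in MøFoxO1-KO livers, and only replicate 26 reached into the WT range (exact permutation test, P = 0.0857). The log2 ratio of Apoa5 to Apoa1 was -3.72 ± 0.427 in WT and -4.63 ± 0.43 in MøFoxO1-KO livers (SD, n = 4, exact permutation test, P = 0.0571). The ratios of Apoc3 to Apoa1, Apoc1 to Apoe, Apoc2 to Apoe and Mttp to Apob differed by -0.43, 0.17, 0.10 and 0.20 log2 units, with overlapping groups. After Benjamini-Hochberg adjustment over the 6 ratios, the smallest P of these exact tests was 0.257.

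**Figure D4:**
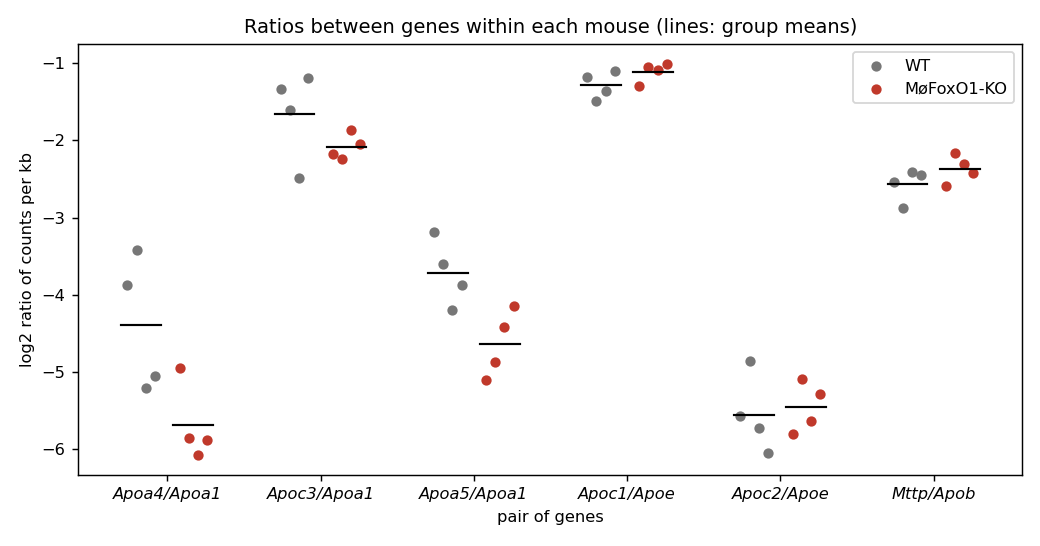
Log2 ratio of counts per kb for 6 pairs of genes in each mouse, with WT in grey, MøFoxO1-KO in red and lines at the group means. The ratios of Apoa4 and of Apoa5 to Apoa1 have lower means in MøFoxO1-KO livers by 1.30 and 0.92 log2 units, and all 6 pairs overlap between the groups.

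Hepatocyte markers were examined beside the 10 genes. Of 10 marker genes, 9 had a log2 fold change above 0, with a median of 0.40, and they held 7.37 to 9.15% of all counts in WT and 7.56 to 9.79% in MøFoxO1-KO livers. By edgeR 5 of the 10 markers had an unadjusted P under 0.05, all higher, against 16.7% of all tested genes (8.65% as higher). By edgeR 1 passed the adjusted P, against 0.294% of all tested genes, and by DESeq2 3 did, against 4.42%. The summed level of the 10 markers was 1049542 to 1515682 normalized counts in WT and 1234682 to 1784181 in MøFoxO1-KO livers. Serpina1c, a serine protease inhibitor secreted by hepatocytes, passed the test (log2 fold change 1.49, standard error 0.24, edgeR adjusted P = 0.037), but kept an adjusted P under 0.05 only without MøFoxO1-KO replicate 28 or WT replicate 25 when each mouse was left out in turn (0.0306 to 0.135). Alb, albumin, had a log2 fold change of 0.19 and Ttpa one of -0.34. No marker was at 0 in every mouse. In bulk RNA, fewer cells of a type and less RNA per cell cannot be told apart. Relative to the 10 summed markers, the log2 level of Apoa1 was 0.77 higher in MøFoxO1-KO livers without overlap (exact permutation test, P = 0.0286), and that of Apob was 0.47 lower without overlap (exact permutation test, P = 0.0286). The gap of Apob was narrow, between -4.79 as the lowest WT and -4.83 as the highest MøFoxO1-KO value. The markers themselves differed 1.10-fold as a share of all counts. In normalized counts Apob overlapped between the groups (exact permutation test, P = 0.457). Relative to the summed markers, Apoc3 and Apoe differed by 0.34 and 0.15 with overlapping groups. Mttp and Apoa5 were lower by 0.27 and 0.15 on this scale, so their direction depends on the scale. The groups also overlapped on this scale for Apoc1, Apoc2, Apoa2 and Apoa4, which differed by 0.32, 0.25, 0.10 and -0.53.

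Macrophages also express Apoe, Apoc1 and Apoc2. Of 11 macrophage markers, 10 had a log2 fold change above 0, with a median of 0.69. By edgeR 0 passed an adjusted P of 0.05. By edgeR 5, all higher, had an unadjusted P under 0.05, against 16.7% of all tested genes (8.65% as higher). DESeq2 passed 2 of the 11 markers, against 4.42% of all tested genes (2.58% as higher). The summed level of the 11 markers was 3084 to 5152 normalized counts in WT and 3284 to 14704 in MøFoxO1-KO livers. Marco, a scavenger receptor of Kupffer cells, had the largest value among them (log2 fold change 5.18, edgeR adjusted P = 0.087), and Lyz2, whose promoter drives the Cre and whose locus carries it, had a log2 fold change of -0.77. Of 7 markers of lipid-associated macrophages 3 were above and 4 below 0, with a median of -0.12, and Gpnmb fell by 4.13 on the log2 scale (edgeR, adjusted P = 0.0382). Gpnmb had 22.9 to 141 normalized counts in WT and 1.12 to 7.59 in MøFoxO1-KO livers, so the size of its difference rests on few reads. With each mouse left out in turn, the adjusted P of Gpnmb was under 0.05 only without MøFoxO1-KO replicate 28 (0.0362 to 0.156). Medians were -0.06 for 9 stellate, 0.24 for 7 endothelial, -0.23 for 5 cholangiocyte and 0.45 for 5 tested of 7 lymphocyte markers. Of these, 0 passed the adjusted P of edgeR or DESeq2. By edgeR 3 stellate markers, all lower, had an unadjusted P under 0.05, against 16.7% of all tested genes in either direction. None of these markers was at 0 in every mouse. Their part in the apolipoprotein values was not tested.

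Other apolipoproteins of liver were examined as a list of 8 genes, of which all but Apod passed the filter. All 7 tested genes had a log2 fold change above 0, against 48.3% of all tested genes, with a median of 0.56. Apom, which carries sphingosine-1-phosphate on HDL, was the member that passed the adjusted P of edgeR, against 0.294% of all tested genes. DESeq2 passed 5 of the 7, against 4.42% of all genes (2.58% as higher). Apom had 903 to 1405 normalized counts in WT and 2598 to 3312 in MøFoxO1-KO livers, without overlap. Apom rose by a log2 fold change of 1.24 (SE 0.16, edgeR adjusted P = 0.0171), below the limit of 1.5 for a call. The adjusted P of Apom ranged from 2.0e-10 to 0.0798 over the alternatives, and it was over 0.05 without WT replicate 22, WT replicate 25, MøFoxO1-KO replicate 27 or MøFoxO1-KO replicate 29. Apoc4, next to Apoc2, had a log2 fold change of 0.71 (edgeR, adjusted P = 0.168). Apoh is also among the hepatocyte markers.

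Genes that help to assemble VLDL were split between both directions. Of 16 genes, 9 were above and 7 below a log2 fold change of 0, with a median of 0.05, and 0 passed the adjusted P of edgeR or DESeq2. By edgeR 3 of the 16 had an unadjusted P under 0.05, all higher, against 16.7% of all tested genes (8.65% as higher). The smallest P values were those of Aadac, a lipid hydrolase of the endoplasmic reticulum (log2 fold change 0.44, edgeR adjusted P = 0.193), and Sort1, sortilin, which binds ApoB in the secretory pathway (log2 fold change 0.99, edgeR adjusted P = 0.193). All 3 genes of the machinery that edits Apob mRNA, which makes a short form of ApoB, were below 0, with a median of -0.15. Of the 3, 0 passed the adjusted P of edgeR or DESeq2. An unadjusted P under 0.05 by edgeR was reached by 1 of them, against 16.7% of all tested genes. Among them A1cf had a log2 fold change of -0.85 (edgeR, adjusted P = 0.284), with 653 to 2196 normalized counts in WT and 466 to 896 in MøFoxO1-KO livers. Without WT replicate 23, which had the 2196 counts, its log2 fold change was -0.34 (edgeR, adjusted P = 0.589). Rbm47 had a log2 fold change of -0.15 (edgeR, adjusted P = 0.648).

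Among 10 genes of plasma lipolysis and lipoprotein remodelling, 8 were above 0, with a median of 0.18. By edgeR 0 passed the adjusted P and 1 had an unadjusted P under 0.05, against 16.7% of all tested genes. DESeq2 passed 1, against 4.42% of all tested genes, and each time the gene was Angptl8. Angptl8, which encodes a secreted regulator of lipoprotein lipase, had 611 to 1352 normalized counts in WT and 1434 to 1897 in MøFoxO1-KO livers (log2 fold change 0.74, edgeR adjusted P = 0.157). Pltp, the phospholipid transfer protein, had a log2 fold change of 0.50 (edgeR, adjusted P = 0.444). Of 10 genes of lipoprotein uptake and cholesterol efflux, 9 were tested, 3 were above and 6 below 0 with a median of -0.00099. The adjusted P of edgeR was passed by 0 of them, and that of DESeq2 by 1, against 4.42% of all tested genes. An unadjusted P under 0.05 by edgeR was reached by 1, against 16.7% of all tested genes. Each time the gene was Vldlr. The VLDL receptor gene Vldlr had the largest difference, 262 to 394 normalized counts in WT and 60.9 to 200.4 in MøFoxO1-KO livers (log2 fold change -1.53, standard error 0.34, edgeR adjusted P = 0.102). Lrp1, the remnant receptor, had a log2 fold change of 0.20 (edgeR, adjusted P = 0.505).

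Of 21 transcriptional regulators of apolipoprotein genes, 7 were above and 14 below a log2 fold change of 0, with a median of -0.11. Of the 21, 0 passed the adjusted P of edgeR or DESeq2. By edgeR 4 had an unadjusted P under 0.05, 2 in each direction, against 16.7% of all tested genes. The groups were apart for 2 of the 21, against 9.71% of all tested genes. These were Nr1h3, the liver X receptor alpha, and Creb3l3, a fasting-induced activator of Apoa4, Apoa5 and Apoc2. Their log2 fold changes were both 0.31 (edgeR, adjusted P = 0.212 and 0.237). Foxo1, the deleted gene, had 303 to 459 normalized counts in WT and 290 to 429 in MøFoxO1-KO livers (log2 fold change -0.17, edgeR adjusted P = 0.686). Whole liver holds Foxo1 mRNA of every cell type, so this value does not check the deletion in myeloid cells.

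**Figure D5:**
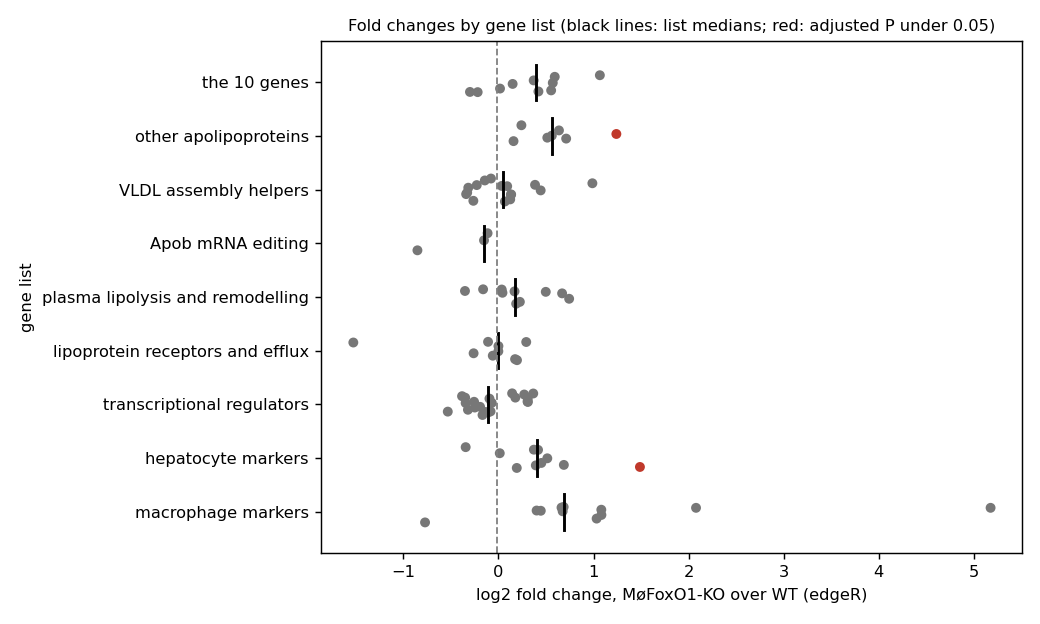
Log2 fold change of MøFoxO1-KO over WT livers (edgeR) for the genes of 9 lists, with black lines at the list medians, a dashed line at the median of all tested genes and red points at an adjusted P under 0.05. The 10 genes, the other apolipoproteins and the hepatocyte markers have medians of 0.40, 0.56 and 0.40, and the assembly helpers one of 0.05.

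Apoa4 varied most among the 10 genes, with an SD of 0.63 log2 units over the 8 mice, closely followed by Apoa1 at 0.62. The tested genes whose pattern over these 8 mice came closest to that of Apoa4 were Fam131c, Dhcr7, Smim24, Grin3b and Ehd1, with root mean square differences of 0.26, 0.26, 0.27, 0.28 and 0.29 log2 units. Dhcr7, the last enzyme of cholesterol synthesis, had 250.1, 417, 179 and 129 normalized counts in WT replicates 22 to 25 and 293, 174, 147 and 195 in MøFoxO1-KO replicates 26 to 29. Like Apoa4, it was highest in WT replicate 23. Grin3b had at most 16.9 normalized counts, so its pattern rests on few reads.

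Total counts per mouse ranged from 15253218 to 18025481, and mitochondrial genes held 4.16 to 6.33% of them. At this depth counting error is small for the 10 genes, and their precision is set by 4 mice per group. TMM factors were 0.992 to 1.15 in WT and 0.902 to 1.01 in MøFoxO1-KO libraries. Scaling by library size alone moved the median log2 fold change of all genes to -0.17. Under this scaling Apoa1 had a log2 fold change of 0.89, and Mttp and Apoa5 had values of -0.14 and -0.012, above that median. With the offset for GC content and exon length, the log2 fold change of Apoa1 was 0.85 (edgeR, adjusted P = 0.107).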

How the data were processed

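The authors deposited counts of reads per Ensembl gene on GRCm38 (mm10), without normalization or pooling. STAR and featureCounts are named in the submitters' processing notes. Their versions, the use of strand and how multi-mapped reads were handled are not given in the sources used here. Symbols came from GENCODE M21 (46005 of 46517 genes), and coordinates are those of the table. Sequences came from RefSeq windows on GRCm38.p6.

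The 10 genes, the gene lists and the tests were chosen with earlier results of these data known. Genes were named by rule: the 10 genes, Foxo1, genes of each pathway list with an adjusted P under 0.05 or otherwise the 2 smallest P values, and the 5 genes most like the most variable of the 10. Apoc4, the markers named and Apoh were chosen after their values were seen.

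Counts were filtered with filterByExpr (minimum count 10, minimum total 15), normalized by TMM and tested over all 13278 genes in edgeR 4.0.16 (R 4.3.3) by quasi-likelihood F tests, with Benjamini-Hochberg adjustment. The common biological coefficient of variation was 0.256. Exact two-sided permutation tests used scipy 1.17.1. Alternatives were DESeq2 1.42.0, limma-voom (limma 3.58.1), 3 other scalings, 2 other filters, the robust fit and leaving out each of 8 mice. An offset for GC content and length (spline with 4 degrees of freedom) and levels relative to hepatocyte markers were added after seeing the data. The fits were checked on simulated data. The labels do not say more of how mice were selected. The P values set the difference between the groups against the spread among these 8 mice.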

Additional observations from a re-analysis of the deposited data

Results flagged for a closer look

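Of 58 groups of 4 mice examined, 4 had a mouse far from the other 3 of its group by Dixon's criterion (gap to the nearest mouse over the range of the group), where chance gives about 1 in 20. Apob in WT replicate 23 was 78259 normalized counts, against 46983 to 49335 in the other WT mice. Mttp in MøFoxO1-KO replicate 27 was 4876 normalized counts, against 3873 to 3911. Apoa5 in WT replicate 22 was 28586 normalized counts, against 16479 to 17816. Creb3l3 in MøFoxO1-KO replicate 27 was 7497 normalized counts, against 6235 to 6380.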

How the results depend on the processing

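Apoa1 kept its direction under every alternative run, with log2 fold changes of 1.08 by DESeq2 and 1.05 without a filter on low counts, which passed the adjusted P, and of 0.90 to 1.18 when each mouse was left out, where it passed without MøFoxO1-KO replicate 28. Mttp and Apoa5 were -0.14 and -0.012 by library size alone, -0.064 to 0.10 and -0.032 to 0.37 with each mouse left out, and -0.27 and -0.15 relative to hepatocyte markers. The ratio of Apoc2 to Apoe was -0.061 to 0.33 with each mouse left out, below 0 without WT replicate 25 or MøFoxO1-KO replicate 27. The median of the 10 genes was 0.18 with the offset for GC content and length. By library size alone, the medians of the assembly, lipolysis and regulator lists were -0.092, 0.018 and -0.28, and the assembly median was -0.084 with the offset. Genes past the adjusted P numbered 5 among other apolipoproteins by DESeq2 and 0 to 3 with each mouse left out (3 without MøFoxO1-KO replicate 28), 1 of lipolysis by DESeq2, and 1 of receptors by DESeq2, 1 without a filter and 0 to 1 with each mouse left out (1 without MøFoxO1-KO replicate 29). Over all genes 39 passed the adjusted P alone, against 25 past both limits. The cause was not tested for any of these. No paired analysis was possible because the groups share no replicate numbers.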
